A study of Arabidopsis thaliana with 4 samples.

Results

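The oil body genes of Arabidopsis thaliana examined here were 10 loci, the oleosin genes OLEO1 to OLEO5, the caleosin genes CLO1 to CLO3, the steroleosin gene HSD1 and the seipin gene SEIPIN1. They were chosen by identifier for the oil body proteins they encode, and make up 10 of 27444 protein-coding genes on the 5 nuclear chromosomes. The data were sites of LEC1-FLAG on the chromatin of developing seeds. LEC1 is a seed-expressed NF-YB subunit and a central regulator of embryo maturation. All 4 samples came from lec1-4 mutants with a transgene for FLAG-tagged LEC1 under its own promoter (pLEC1:LEC1-FLAG lec1-4). Plants were kept at 22°C in days of 16 h light and nights of 8 h. In 2 of them chromatin was precipitated with an anti-FLAG antibody, and the other 2 were the matching input chromatin. The LEC1 promoter sets which seed cells hold the tagged protein, while input chromatin comes from the whole sample. The sample labels give a seed mature stage and the series title gives embryo expansion. The number of transgenic lines is not given in the sources used here. Precipitation from plants without the tag was not analysed here, so the background of the antibody was not measured at any of these genes.

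Oil bodies are the organelles in which the embryo stores triacylglycerol, enclosed by a single layer of phospholipid. Oleosins coat that layer and keep the bodies small and apart, caleosins are calcium-binding oil body proteins with peroxygenase activity, and steroleosins are sterol-binding dehydrogenases of the same surface. Seipins sit in the endoplasmic reticulum and help lipid droplets to form there. LEC1 acts in NF-Y complexes, which bind DNA with other seed factors such as B3 and bZIP proteins.

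A summit is the position of highest fragment coverage within a peak. A gene was counted where a summit lay in it or up to 1000 bp outside either end. Fold is the number of ChIP fragments at the summit over the local input background, with 1 added to both by the peak caller. Replicate 1 had 15542 summits on the nuclear chromosomes from 4454133 ChIP tags and 7578894 input tags. Replicate 2 had 3777 summits from 4493099 ChIP tags and 9646586 input tags. The fold at a gene's highest summit had a median of 4.29 over the 13227 genes with a summit in replicate 1, and of 3.43 over 3716 genes in replicate 2. Intervals given with folds are 95% exact Poisson intervals of the ChIP fragment number, cover counting error only and take the background as exact. The labels give no condition to compare, so positions, levels and counts are described without a test.

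Most oil body genes had a LEC1-FLAG summit in both replicates, and the 5 oleosin genes all did. Of the 10 genes, 9 had a summit in replicate 1, where 48.2% of all protein-coding genes did, and 7 had a summit in replicate 2, against 13.5% of all genes. The same 7 genes, OLEO1 to OLEO5, CLO1 and CLO2, had a summit in both lists, against 13.3% of all genes. At each of the 7 the summits of the replicates also lay within 150 bp of each other. This held for 12.7% of all genes, but for 3491 of the 3651 genes with summits in both lists, so it was usual among such genes. CLO3 and SEIPIN1 had a summit in replicate 1 alone, and HSD1 had none. The count rests partly on weak replicate 2 summits. With −log10 q of at least 5 required in both lists, 4 of the 10 genes remained, OLEO1, OLEO3, OLEO5 and CLO1, against 7.57% of all genes. With at least 10, 3 remained, OLEO1, OLEO3 and CLO1, against 2.95%.

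**Figure D1:**
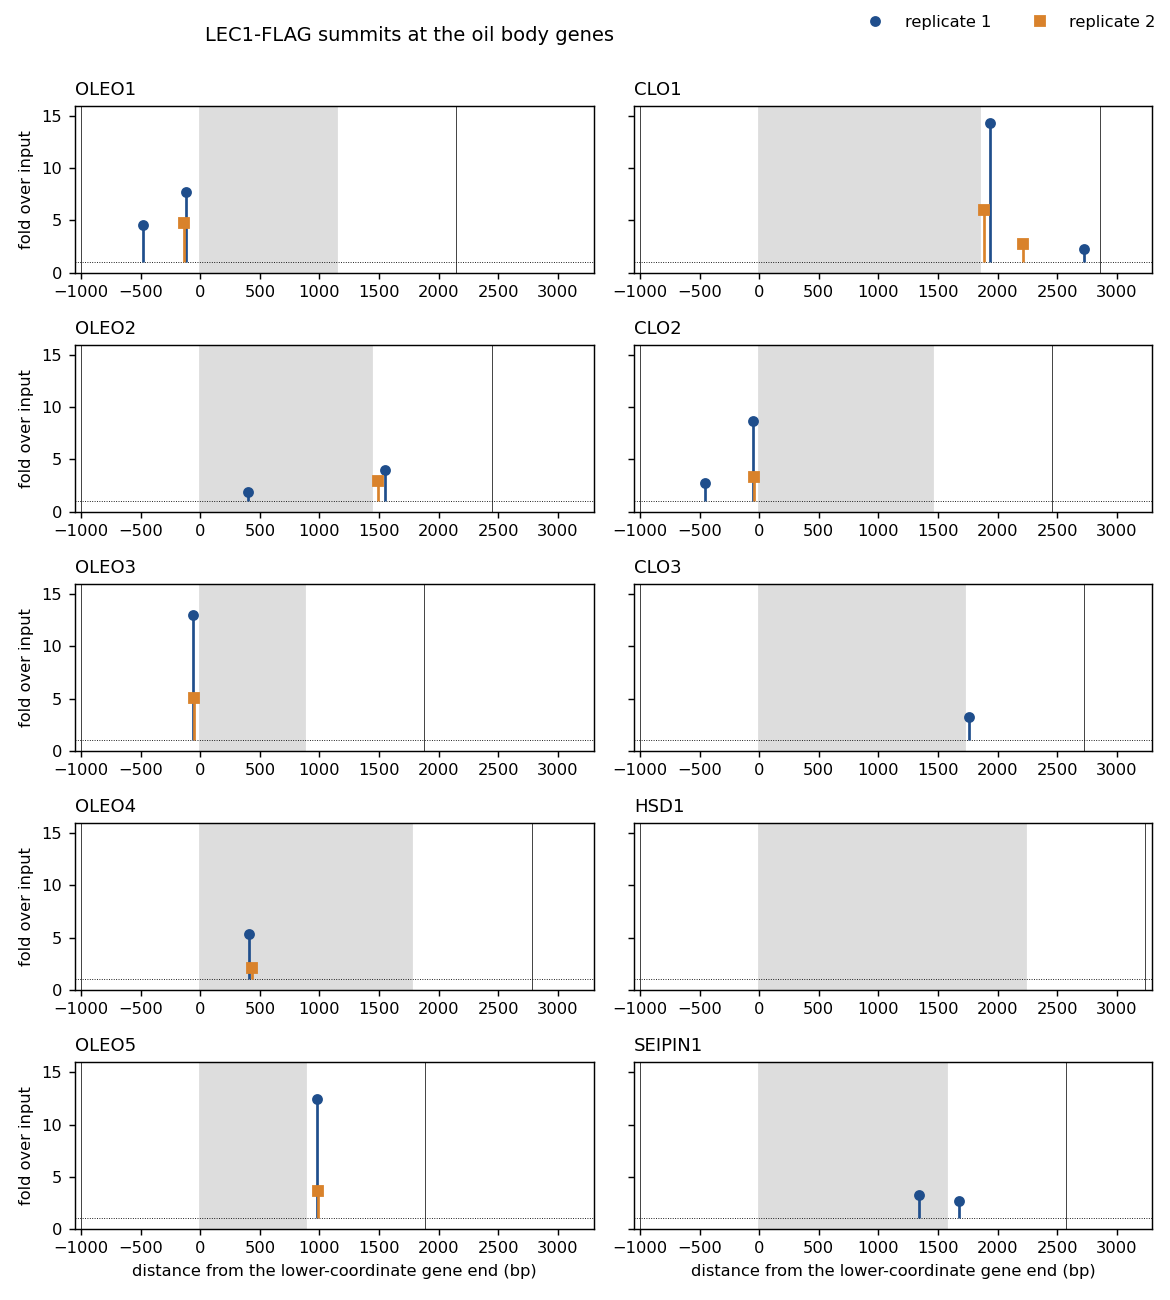
Summits at each oil body gene, with the distance in bp from the gene end of lower coordinate on the x axis and the fold over input on the y axis. Grey spans are the genes, thin vertical lines the limits of the 1000 bp window, blue circles replicate 1 and orange squares replicate 2; at 6 of the 7 genes with summits in both replicates the highest summit stands just outside a gene end, and OLEO4 has it inside.

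OLEO3 (AT5G51210), one of the oleosin genes of the seed, had the highest fold of the oleosins in both replicates, with intervals that overlapped those of OLEO5 in replicate 1 and of OLEO1 in replicate 2. It carried 109 fragments in replicate 1, at position 20820007 of chromosome 5 in the TAIR10 coordinates of the files, and 34 fragments in replicate 2, at position 20820019. These gave 12.97-fold (10.7 to 15.6) in replicate 1 and 5.03-fold (3.53 to 6.98) in replicate 2. Both summits lay just outside the gene, 61 and 49 bp from the same end. By fold they ranked 552 of 15542 and 422 of 3777, and OLEO3 had no other summit in its window.

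OLEO1 (AT4G25140) encodes the major oleosin of Arabidopsis seeds. Its highest summit had 84 fragments in replicate 1 and 32 in replicate 2, at positions 12900307 and 12900297 of chromosome 4. The folds were 7.73 (6.19 to 9.55) in replicate 1 and 4.74 (3.28 to 6.63) in replicate 2, 123 and 133 bp outside the gene. In replicate 1 the same peak held a second, weaker summit 481 bp outside the gene, with 43 fragments and 4.54-fold. The replicate 2 peak, from 12900070 to 12900452, did not reach that second summit at 12899949. OLEO1 was the gene among the 7 whose rank was nearly alike in both lists, 2190 of 15542 and 541 of 3777, or the top 14.1% and 14.3%.

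OLEO5 (AT3G01570), named here as an oleosin gene and listed in the gene table without a symbol, had the most fragments and the highest −log10 q, 92.9, of the oleosins in replicate 1. Its summits had 128 fragments in replicate 1 and 30 in replicate 2, at positions 222915 and 222924 of chromosome 3, 88 and 97 bp outside the gene. Fold was 12.4 (10.4 to 14.7) in replicate 1 and 3.67 (2.51 to 5.19) in replicate 2. The replicate 2 fold was 0.296 times that of replicate 1, the lowest such ratio of the 7 genes, while OLEO2 had the highest at 0.736. The median ratio was 0.402 in the 7 oil body genes and 0.406 in the 3651 genes with summits in both lists.

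OLEO2 (AT5G40420) and OLEO4 (AT3G27660), 2 further seed oleosin genes, had the weakest sites of the oleosins. The OLEO2 summits lay 107 and 46 bp outside the gene, at positions 16174890 and 16174829 of chromosome 5, with 35 fragments in replicate 1 and 24 in replicate 2. They reached 4.02-fold (2.83 to 5.55) and 2.96-fold (1.94 to 4.34), below the median of all genes with a summit in each list. A second OLEO2 summit in replicate 1, inside the gene 399 bp from its other end, had 22 fragments and 1.89-fold and ranked 15509 of 15542. OLEO4 differed from the other oleosins in position, since its summits lay inside the gene, 405 and 436 bp from an end, at positions 10243649 and 10243680 of chromosome 3. It had 42 fragments and 5.30-fold (3.86 to 7.12) in replicate 1, and 19 fragments and 2.13-fold (1.33 to 3.27) in replicate 2. The replicate 2 call, with a −log10 q of 1.38, ranked 3750 of 3777 and stood close to the authors' threshold.

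CLO1 (AT4G26740, ATS1 in the gene table), the oil body caleosin of seeds, had the highest fold of the 10 genes in both replicates. Its main summits had 126 fragments in replicate 1 and 41 in replicate 2, at positions 13475450 and 13475403 of chromosome 4, 79 and 32 bp outside the gene. Fold was 14.3 (11.96 to 17.0) in replicate 1, rank 378 of 15542, and 6.03 (4.37 to 8.13) in replicate 2, rank 189 of 3777. By the smaller of both folds, CLO1 was 202nd of the 3651 genes with summits in both lists, followed among the oil body genes by OLEO3 at 456 and OLEO1 at 591. CLO1 also had a weak summit farther out in each list, 874 bp outside the gene with 2.25-fold in replicate 1 and 356 bp outside with 2.73-fold in replicate 2. These weak summits lay at different places. The summit at 874 bp was the one nearest to the 1000 bp limit inside it, and the nearest beyond it, with 2.14-fold in replicate 1, lay 1112 bp outside CLO1.

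CLO2 (AT5G55240, ATPXG2 in the gene table), a second caleosin gene, had 89 fragments in replicate 1 and 22 in replicate 2. Its summits, at positions 22405842 and 22405854 of chromosome 5, lay 54 and 42 bp outside the gene. Fold was 8.65 (6.97 to 10.6) in replicate 1 and 3.34 (2.15 to 4.98) in replicate 2. A separate replicate 1 peak 456 bp outside the same end had 2.78-fold. CLO3 (AT2G33380, RD20 in the gene table), a caleosin gene known for its induction by drought and abscisic acid, had a single summit in replicate 1, with 28 fragments and 3.25-fold (2.20 to 4.65), 35 bp outside the gene at position 14146590 of chromosome 2. In replicate 2 the nearest summit was 21662 bp away. The replicate 1 interval of CLO3 lay wholly below those of CLO1 and CLO2.

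SEIPIN1 (AT5G16460) had 1 peak with a pair of summits in replicate 1 and none in replicate 2. The stronger had 29 fragments and 3.25-fold (2.21 to 4.62), inside the gene 231 bp from an end at position 5378302 of chromosome 5, and the weaker had 24 fragments and 2.71-fold, 104 bp outside the same end. The nearest replicate 2 summit was 17810 bp from the gene. CLO3 and SEIPIN1 thus stood at nearly the same replicate 1 level, rank 9486 and 9501. Among the 1734 genes with a highest replicate 1 fold of 3 to 3.5, 4.04% also had a replicate 2 summit. OLEO2 was in the group of 3.5 to 4.5, where 9.24% had one, and OLEO3, OLEO5 and CLO1 were in the group of 10 and above, where 96.0% had one.

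HSD1 (AT5G50600), the steroleosin gene, had no summit in either replicate. The nearest summit lay 37097 bp away in replicate 1 and 50003 bp away in replicate 2. The gene table gives the symbol HSD1 to a further locus, AT5G50700, which starts 33322 bp from AT5G50600 and likewise had no summit. Both loci lay in a stretch of 82203 bp without a replicate 1 summit, which held 29 whole protein-coding genes. Gaps of that length or more numbered 85 and made up 0.547% of all gaps between neighbouring replicate 1 summits, whose median was 3737 bp. In replicate 2, with fewer summits, the stretch around both loci was 122837 bp with 40 whole genes. There, 133 gaps of that length or more made up 3.53%. Both shares count gaps and not the genome they cover, of which a long gap holds more than a short one. The stretch was described because HSD1 had no summit. The names of the authors' alignments carry the tag uni, which may stand for uniquely placed reads. If only such reads were kept, reads that fit more than 1 place are lost where copies are alike. The part of such a loss in the lack of a summit was not tested.

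**Figure D2:**
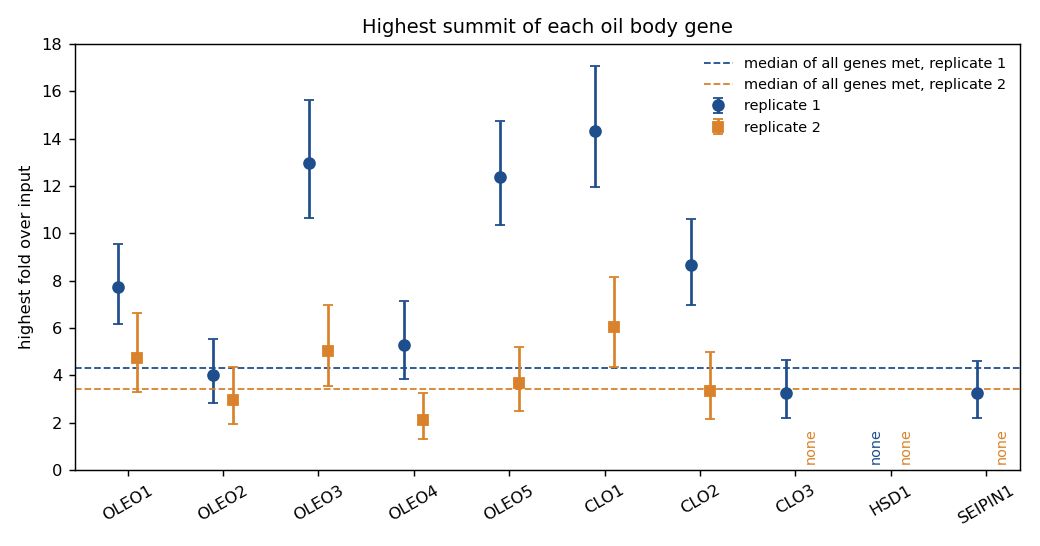
Highest fold over input of each oil body gene, with genes on the x axis and fold on the y axis, for replicate 1 (blue circles) and replicate 2 (orange squares). Bars are 95% Poisson intervals of the ChIP fragments, dashed lines the medians over all genes with a summit in each list (4.29 and 3.43), and "none" marks the lack of a summit; CLO1, OLEO3 and OLEO5 stand highest in replicate 1, and CLO1 highest in replicate 2.

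In order of replicate 1 fold the genes ran CLO1, OLEO3, OLEO5, CLO2, OLEO1, OLEO4, OLEO2, CLO3 and SEIPIN1, and neighbours in that order had overlapping intervals throughout. The intervals of CLO1 and OLEO3 lay above that of CLO2, and those of CLO1, OLEO3 and OLEO5 above that of OLEO1. In replicate 2 the order was CLO1, OLEO3, OLEO1, OLEO5, CLO2, OLEO2 and OLEO4, again with overlapping intervals between neighbours. The interval of OLEO4 lay wholly below those of CLO1, OLEO3 and OLEO1. Once a gene had summits in both lists, the level of the oil body genes was close to that of the others. The 7 genes had a median highest fold of 8.65 in replicate 1, against 8.60 over the 3651 genes with summits in both, and 3.67 in replicate 2, against 3.44. The local background at their highest summits, with the added 1 included, was 8.11 to 11.0 fragments over the 9 genes of replicate 1, with a median of 8.96, against a median of 8.92 over all summits. In replicate 2 it was 6.89 to 9.38 over 7 genes, with a median of 6.97 against 7.52.

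**Figure D3:**
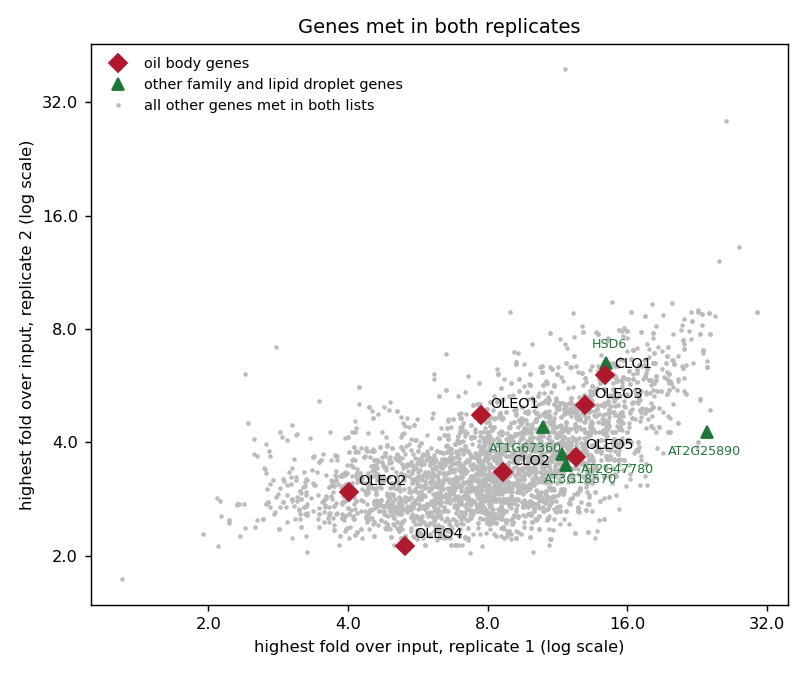
Highest fold over input per gene in replicate 1 (x axis) and replicate 2 (y axis), both on log scales, for the 3651 genes with summits in both lists. Red diamonds are the 7 oil body genes, green triangles the 5 other family or lipid droplet genes and grey points the remaining genes. By the smaller of both folds, the oil body genes run from OLEO4, 3641 of 3651, to CLO1, 202 of 3651.

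The sites of the replicates coincided closely, and most stood just outside 1 end of the gene. The highest summits of replicates 1 and 2 lay 9 to 61 bp apart at the 7 genes, with a median of 12 bp, and at each gene the replicate 2 peak lay wholly within the replicate 1 peak. At OLEO1, OLEO2, OLEO3, OLEO5, CLO1 and CLO2 the highest summit stood outside the gene within 150 bp of an end in both replicates. That position held for 6 of the 7 oil body genes, against 20.3% of the 3651 genes with summits in both lists by replicate 1 positions and 21.0% by replicate 2 positions. With each summit given only to its nearest gene, it held for 5 of 6 oil body genes in both replicates, against 22.5% and 23.6% of 2577 genes. Strand is absent from the gene table, so starts and ends of genes could not be told apart. None of the 8 oil body genes with a replicate 1 summit outside the gene had summits on both sides, against 12.3% of all such genes. In replicate 2 it was none of 6, against 2.87%. With so few genes, these counts of summits on both sides do not set the oil body genes apart from all genes. The difference in position within 150 bp of an end was not tested. The oil body genes were shorter, with a median of 1514.5 bp against 2078 bp over all genes. The part of gene length in any of these position counts was not tested.

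At 5 of the 7 genes the highest summit also lay within 1000 bp of a neighbouring protein-coding gene, so the site was not assigned to 1 gene alone. In replicate 1 the summit of OLEO1 was 123 bp from OLEO1 and 217 bp from PMSR4 (AT4G25130), a gene of the peptide methionine sulfoxide reductase family. The CLO1 summit was 79 bp from CLO1 and 167 bp from EXT-like (AT4G26750). The CLO2 summit was 54 bp from CLO2 and 274 bp from MAP65-1 (AT5G55230), a microtubule-associated protein gene, and the OLEO3 summit was 61 bp from OLEO3 and 378 bp from EMB3142 (AT5G51200). At these 4 genes the oil body gene was the nearer. OLEO5 was the exception, with AT3G01572 at 53 bp nearer than OLEO5 at 88 bp, and AT3G01580 and AT3G01560 at 417 and 926 bp. OLEO2 and OLEO4 had no neighbour within 1000 bp of the highest summit.

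Relatives of the oil body genes were counted in the same way, over 30 loci grouped from general knowledge as other oleosins, caleosins, HSD genes, seipins and lipid droplet genes. Of these, 16 had a summit in replicate 1 (53.3%, against 48.2% of all genes) and 5 in both replicates (16.7%, against 13.3%), shares close to those of all genes. None of the 5 other caleosin loci, CLO4 among them, had a summit in either list, while CLO1 and CLO2 had summits in both. None of the 6 GRP genes on chromosome 5, which encode the glycine-rich oleosins of the pollen coat, had summits in both lists. GRP19 and GRP20 shared a replicate 1 summit of 3.17-fold, and GRP14, GRP16, GRP17 and GRP18 had none. With only 5 or 6 loci in a group, none with summits in both lists stays near the 13.3% of all genes. The difference between these groups and the seed members was not tested.

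Of the other 4 oleosin loci all had a replicate 1 summit, and AT2G25890 and AT3G18570 had summits in both lists. AT2G25890 had 219 fragments and 23.8-fold (20.8 to 27.2) in replicate 1, 12th of 15542 summits, and 45 fragments and 4.27-fold (3.14 to 5.68) in replicate 2. These highest summits, 315 and 335 bp outside AT2G25890, lay inside the neighbouring gene AUR2, an Aurora kinase gene. A further replicate 2 summit, only 73 bp outside AT2G25890, had 34 fragments and 3.92-fold. A further replicate 1 summit, 569 bp outside its other end, had 2.44-fold. AT3G18570 had 11.5-fold (9.48 to 13.9) and 3.72-fold (2.50 to 5.36). Its highest summits were 48 and 116 bp outside it and 75 and 7 bp from AT3G18580. A lower replicate 2 summit inside AT3G18570, 91 bp from an end, had 2.79-fold. AT1G48990 had 11.1-fold in replicate 1, 4 bp outside the gene, and no summit in replicate 2.

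Among the other HSD genes, which like HSD1 encode hydroxysteroid dehydrogenases, HSD6 (AT5G50770) had the highest replicate 2 fold of the 30 loci. It had 121 fragments and 14.4-fold (11.97 to 17.2) in replicate 1 and 48 fragments and 6.52-fold (4.84 to 8.59) in replicate 2. These were 79 and 104 bp outside the gene, at positions 20648804 and 20648829 of chromosome 5. Both folds were slightly above those of CLO1, with overlapping intervals, and this replicate 2 summit ranked 119 of 3777. A lower replicate 2 summit inside HSD6, 109 bp from an end, had 3.10-fold. HSD5 had 7.35-fold and HSD2 2.62-fold in replicate 1 alone, and HSD3, HSD4, HSD7 and AT5G50700 had no summit. The other seipin loci, AT1G29760 and AT2G34380, had 2.57-fold and 3.43-fold in replicate 1 and, like SEIPIN1, no summit in replicate 2.

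Of the 6 lipid droplet loci, 5 had a replicate 1 summit (83.3%, against 48.2% of all genes). Summits in both lists were found at 2 of them (33.3%, against 13.3%). With so few loci, these differences were not tested. The highest summits of AT1G67360 had 10.5-fold (8.78 to 12.5) and 4.41-fold (3.08 to 6.14), 719 and 732 bp outside the gene. They were nearer to ASY1, at 182 and 169 bp. Lower summits stood at AT1G67360 itself in both replicates. A replicate 1 summit inside the gene, 40 bp from an end, had 77 fragments and 8.62-fold. In replicate 2 a summit inside the gene had 2.78-fold, and another, 137 bp outside it, had 3.65-fold. AT2G47780 had 11.8-fold (9.83 to 14.1) and 3.48-fold (2.38 to 4.91), 198 and 236 bp outside it, with TSPO at 335 and 297 bp. In replicate 1 alone, AT3G05500 had 8.11-fold and AT5G16550 had 5.31-fold. SDP1, which encodes a lipase that breaks down stored triacylglycerol at germination, had 4.77-fold, also in replicate 1 alone. AT4G10790 had no summit in either list.

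**Figure D4:**
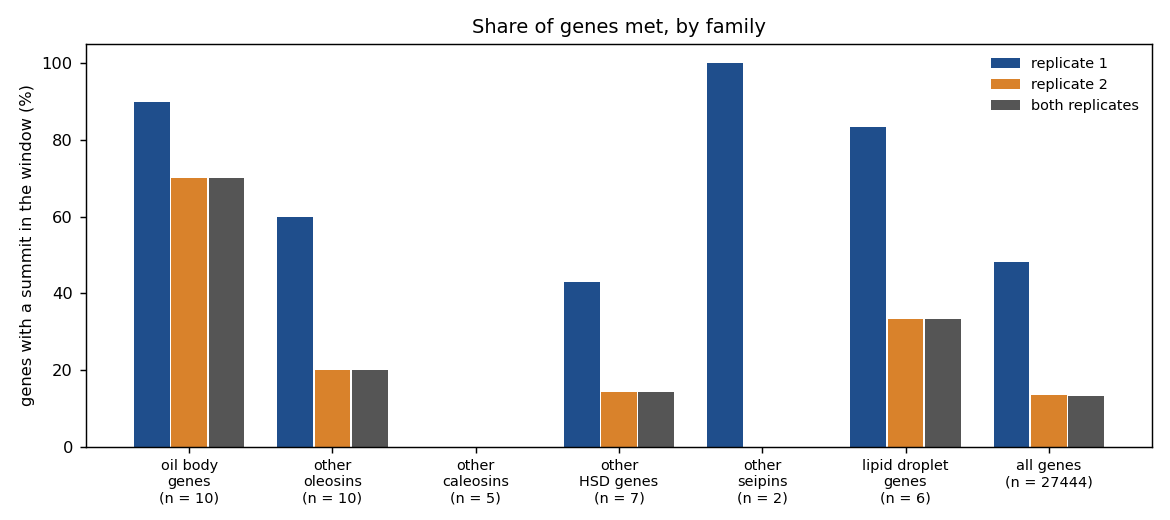
Share of genes with a summit in the gene or within 1000 bp of it (y axis, percent), by group (x axis) in replicate 1, replicate 2 and both replicates. The oil body genes stand at 90.0%, 70.0% and 70.0%, against 48.2%, 13.5% and 13.3% of all 27444 genes, and the 5 other caleosins at 0.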

How the data were processed

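The data were 2 lists of ChIP-seq peaks, 1 for each LEC1-FLAG library against its own input. The series design calls the replicates biological. BWA 0.7.12, MACS2 2.1.0.20150420 and the build TAIR10 are named in the submitters' processing notes. Per the file headers, MACS2 used a q threshold of 0.05, no shift model, extension to 187 bp (replicate 1) or 149 bp (replicate 2), and at most 1 tag per position, and it scaled the larger library down. Per the file headers, the pileup is a signal that counts extended fragments over a summit. The deposited fold is the ratio of pileup to local background, 1 being added to each. Significance is deposited as −log10 of the p-value and of the q-value. All are the authors' own values per summit, used to describe, rank and filter within a list. PCR reads carry no molecular identifiers. Intervals cover counting error only, since they are Poisson intervals of the fragment number of a single library.

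Local background was taken as pileup plus 1, divided by fold, so each background value given includes the added 1. Chloroplast summits, 292 in replicate 2, were left out. Genes came from a RefSeq table of assembly TAIR10.1, in which all 10 oil body and all 30 related loci matched by identifier. Summits within 200 bp of a gene end made up 42.6% in either replicate, and 15.0% to 20.1% with summits shifted by 500 to 2000 bp. Strand, exons, promoters and sequence were not used here. Scripts ran in Python 3.11.15 with numpy 2.4.6, pandas 2.3.3 and scipy 1.17.1, and the assignment of summits was tested on simulated data. The 10 genes were all named, with each related gene met in both replicates and each neighbour of a strongest summit. The further related genes were named after their values were seen. Members and lists were chosen with earlier results of these data known. Alternatives were other windows, stricter q, the nearest gene only, other summit distances and each replicate alone.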

Additional observations from a re-analysis of the deposited data

How the results depend on the processing

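Stricter peak thresholds changed the counts most. With −log10 q of at least 5, 4 of the 10 oil body genes had summits in both replicates, and the same 4 had them within 150 bp of each other. With at least 10 it was 3 by either count. Under these thresholds 7.57% and 2.95% of all genes had summits in both, and 7.37% and 2.92% had them within 150 bp. The count was 7 without replicate 1, against 13.5% of all genes, and 9 without replicate 2, against 48.2%. It was 7 with the 500 bp window (10.4% of all genes), the 2000 bp window (18.1%) and overlap of peak intervals (14.0%). With the nearest gene only (without OLEO5) it was 6, against 9.39%. With 200 bp inside the gene ends (without OLEO4) it was also 6, against 11.7%. At other summit distances the count of close summits was 6 or 7. The share of all genes thus moved with the setting. The highest fold of each gene was the same in all 46 comparisons with another window or the nearest gene, where a summit was still assigned. This says little, since each highest summit lay inside its gene or at most 133 bp outside it, within the 500 bp window. The 2000 bp window added only a 2.14-fold summit, 1112 bp outside CLO1 in replicate 1. No paired analysis was possible because each replicate gave 1 peak list made from its ChIP and input libraries together, with no values of the input alone. The planned count of sequence motifs in promoters was not run, since no genome or promoter sequence was used here. Replicate 2 held 3777 summits and replicate 1 held 15542, from 4493099 and 4454133 ChIP tags, and the cause of this difference was not tested. A gene without a replicate 2 summit was not called there, which does not show that LEC1-FLAG was absent.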
